A study of Mus musculus with 4 samples.

Results

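Interleukin-10 (Il10), the 2 chains of its receptor (Il10ra and Il10rb) and Stat3, the transcription factor that the receptor activates, were followed as 4 genes of the 55536 in the deposited gene tables. They were chosen by symbol, and all 4 symbols matched 1 gene each. The choice was made with earlier results of these data known, so their levels are given as a description. They entered the test over all genes described below, and nothing is read from their own calls. Polyadenylated RNA was sequenced from macrophages grown from the bone marrow of C57BL/6J mice, in 4 libraries that form 1 group. Before RNA was taken, the cells were exposed for 60 minutes to a stimulus at 100 ng/mL. The labels give its name as lipid A, the lipopolysaccharide part sensed by Toll-like receptor 4, in one field and as lipoprotein A in others, so the text speaks only of the stimulus. The labels record neither age nor sex and give no genetic change. They number the libraries as biological replicates 1 to 4 under a single donor label and do not state separate animals or cultures, so the spread between them may be technical. No unstimulated cells were analysed here, and no value below measures a response to the stimulus.

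Interleukin-10 is a secreted cytokine that restrains inflammatory gene expression, and activated macrophages are among its sources as well as its targets. It binds the chain encoded by Il10ra, which is specific to it and carries the docking sites for Stat3. The chain encoded by Il10rb is shared with the receptors of other cytokines of the family and of lambda interferons. The kinases Jak1, bound to the first chain, and Tyk2, bound to the second, phosphorylate Stat3, which enters the nucleus and switches on genes such as Socs3. Production of the cytokine in macrophages is known to depend on MAP kinase signalling, on CREB, AP-1 and Maf factors at the gene and on proteins that control the decay of its messenger RNA.

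The libraries held between 26917288 and 39438391 gene counts. Of the counts, between 3.43% and 12.4% fell on ribosomal RNA genes, with the highest share in replicate 1. This set was taken by annotated type, mitochondrial ribosomal RNA included, with a gene added by name. Mitochondrial genes took between 3.96% and 9.11% of the TPM, a relative transcript abundance that accounts for gene length. Mitochondrial ribosomal RNA enters both shares. All 9 macrophage markers, which include Adgre1, Csf1r and Cd68, were at 1 TPM or more in every library. Their summed level was 20136, 35473, 20732 and 28449 TPM in replicates 1 to 4, mostly from the lysozyme gene Lyz2. The 9 markers of neutrophils and their precursors summed to 198, 108, 729.6 and 69.0 TPM, mostly from S100a9 and S100a8. S100a9 was at 101, 61.6, 457 and 41.9 TPM and S100a8 at 74.0, 36.8, 181 and 22.0 TPM in replicates 1 to 4. Ngp was at 17.6, 6.44, 66.3 and 3.67 TPM and Ltf at 3.46, 2.07, 19.4 and 1.15 TPM in replicates 1 to 4. Of the 9 markers, 4 were thus at 1 TPM or more in every library. The neutrophil surface marker Ly6g was at 0 in 3 libraries and at 0.120 TPM in replicate 3. Summed markers of T cells did not exceed 1.01 TPM, those of B and plasma cells 3.70, of NK cells 0.230, of dendritic cells 7.07 and of mast cells and basophils 1.86 TPM. Replicates 1 and 2 were made from 6 read files each and replicates 3 and 4 from 4 each, so ratios within each of these sets are also given.

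Il10ra and Stat3 were each spread over several annotated transcripts that differ at a splice site or exon, and these stretches are shown because they set how the encoded proteins differ. The transcripts also differ in length outside them, so the shares below do not rest on these bases alone. They were read from the GENCODE M21 transcripts on the build GRCm38 (mm10), 5′ to 3′ on the strand of the gene. Where a transcript holds the bases that differ, these are in capitals. Where it lacks them, the capitals mark the last base before and the first base after the junction. The transcript Stat3-202 lacks 50 bases at the start of the penultimate exon, at chr11:100889541-100889590 on the minus strand, and ends after 722 codons in place of 770. This is the beta form of the protein, which lacks the carboxy-terminal transactivation domain.
Stat3-203: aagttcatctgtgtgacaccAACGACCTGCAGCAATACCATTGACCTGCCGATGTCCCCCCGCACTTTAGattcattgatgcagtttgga
Stat3-202: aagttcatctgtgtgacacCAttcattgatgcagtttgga
The transcript Stat3-201 lacks 3 bases at a splice junction, at chr11:100893074-100893076 on the minus strand, and so encodes 769 codons.
Stat3-203: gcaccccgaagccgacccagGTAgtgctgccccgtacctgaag
Stat3-201: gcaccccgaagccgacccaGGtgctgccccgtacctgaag
The transcript Il10ra-203 skips a coding exon of 121 bases, at chr9:45267100-45267220 on the minus strand. Its reading frame then stops after 85 codons in place of 575, and the annotation marks it as a target of nonsense-mediated decay.
Il10ra-201: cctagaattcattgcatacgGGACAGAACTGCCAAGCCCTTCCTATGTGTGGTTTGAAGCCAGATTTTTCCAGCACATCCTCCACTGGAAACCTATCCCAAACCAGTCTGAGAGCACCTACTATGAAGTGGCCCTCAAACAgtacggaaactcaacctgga
Il10ra-203: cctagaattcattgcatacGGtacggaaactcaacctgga
Il10ra-202 lacks only the first 6 bases of the same exon, at chr9:45267215-45267220, and keeps 573 codons.
Il10ra-201: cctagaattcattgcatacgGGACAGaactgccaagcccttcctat

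The cytokine gene had the highest mean level of the 4 genes and the widest spread. Il10 (ENSMUSG00000016529.5) lies on the plus strand at chr1:131019845-131024974. Its level was 128, 575, 385 and 664 TPM in replicates 1 to 4, with a mean of 438 ± 237 TPM (SD, n = 4). Replicate 1 stood lowest and replicate 4 highest, 5.20-fold apart. Among the 22028 protein-coding genes Il10 ranked 926th, 234th, 322nd and 183rd by TPM in replicates 1 to 4. Without replicate 1 the highest and lowest libraries were 1.73-fold apart, so 1 library sets most of the range. The expected counts behind these levels were 2353, 11894, 9964 and 18196, so counting error is small beside the spread. In bulk RNA, fewer cells that make a transcript and less of it per cell cannot be told apart.

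The low level in replicate 1 was present in each of the deposited estimates. In the second quantification, which was made from the reads without the alignment, Il10 was at 87.3, 362, 323 and 535 TPM, a 6.13-fold range. With ribosomal RNA and mitochondrial genes left out of the total, it was at 152, 631, 443 and 763 TPM, a 5.02-fold range. Between the 2 libraries made from 6 read files, replicate 2 was 4.50-fold above replicate 1. Between the 2 made from 4 read files, replicate 4 was 1.73-fold above replicate 3. The second quantification gave 4.15-fold and 1.65-fold for the same steps. The share of ribosomal RNA was highest in replicate 1, where Il10 was lowest, and its part in the result was not tested on its own, since the total above leaves out ribosomal and mitochondrial genes together.

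The ligand-binding receptor chain was lower and less variable. Il10ra (ENSMUSG00000032089.16, minus strand, chr9:45253837-45269149) was at 108, 204, 121 and 193 TPM in replicates 1 to 4, with a mean of 157 ± 49.1 TPM (SD, n = 4). Replicates 2 and 4 were high and replicates 1 and 3 low, 1.90-fold apart at the extremes. The second quantification gave 72.9, 128, 105 and 162 TPM, with replicate 4 in place of replicate 2 on top. Replicate 2 was 1.90-fold above replicate 1, and replicate 4 was 1.59-fold above replicate 3. The deposited TPM credibility intervals of replicates 2 and 4 overlapped, from 188 to 195 TPM and from 184 to 189 TPM, and all other pairs of libraries were apart.

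The shared receptor chain was the steadiest of the 4 genes. Il10rb (ENSMUSG00000022969.13, plus strand, chr16:91406164-91425834) was at 251, 287, 321 and 297 TPM, with a mean of 289 ± 29.1 TPM (SD, n = 4). The highest library, replicate 3, was 1.28-fold above the lowest, replicate 1. In the second quantification it was at 179, 191, 283 and 251 TPM, a 1.58-fold range with the same libraries at the ends. Replicate 2 was 1.14-fold above replicate 1 and replicate 4 stood at 0.926 of replicate 3, so replicate 4 was not above replicate 3 as it was in the other 3 genes. Il10rb overlaps the annotated gene Gm21970, which reaches in from Ifnar2 and covers 569 of the 1850 exon bases of the main Il10rb transcript. Gm21970 was listed at 0.520 TPM or less, so few reads were given to it, but the split between the genes rests on the authors' estimate.

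Stat3, which carries the signal to the nucleus, had the lowest level of the 4 genes in every library. Stat3 (ENSMUSG00000004040.16, minus strand, chr11:100885098-100939540) was at 36.1, 67.4, 42.5 and 56.5 TPM, with a mean of 50.6 ± 14.0 TPM (SD, n = 4). As for Il10ra, replicates 2 and 4 were high and replicates 1 and 3 low, with a 1.87-fold range. The second quantification gave 26.8, 45.6, 39.8 and 52.4 TPM. Replicate 2 was 1.87-fold above replicate 1, and replicate 4 was 1.33-fold above replicate 3. The last 72 bases of the long transcript Stat3-202 overlap the end of Stat5a on the other strand. The strand setting of the counting is not given in the sources used here, so reads of those bases cannot be assigned with certainty.

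**Figure D1:**
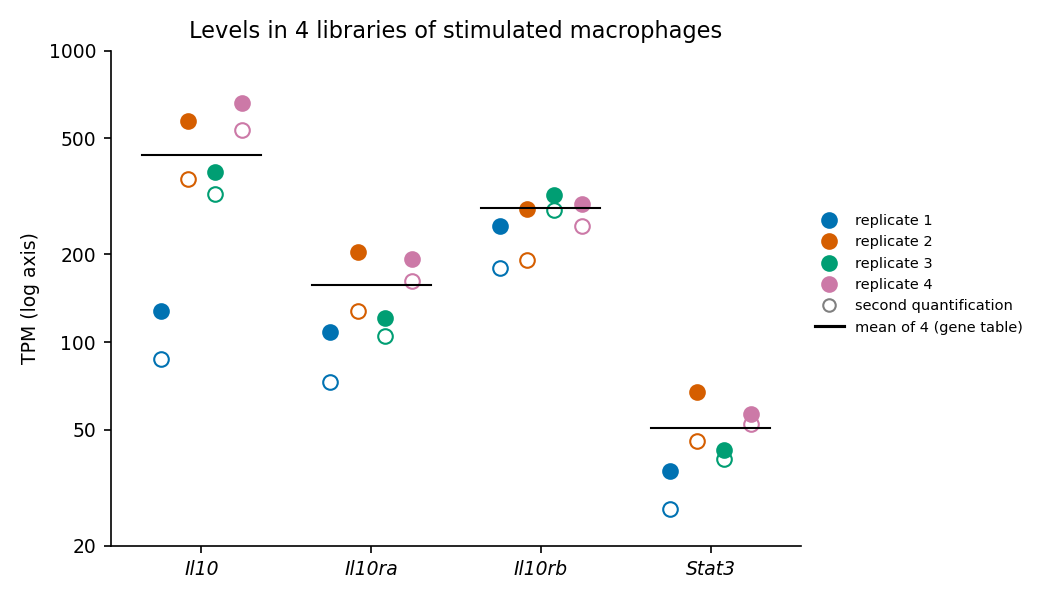
Level of Il10, Il10ra, Il10rb and Stat3 in TPM on a log axis, with 1 colour per library, filled points for the gene table, open points for the second quantification and bars for the mean of 4 libraries in the gene table. Il10 runs from 128 to 664 TPM, while Il10rb stays between 251 and 321 TPM and Stat3 is lowest in every library.

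Ratios within a library remove the depth and the total that a library's values share. Il10 stood above Il10ra in 4 of 4 libraries, at 1.18, 2.82, 3.17 and 3.44 times its TPM. It stood above Il10rb in 3 of 4, at 0.509, 2.00, 1.20 and 2.24 times, so the order of cytokine and shared chain was turned in replicate 1. Il10ra was below Il10rb in every library, at 0.429, 0.712, 0.378 and 0.650 of its TPM. The ratio of Il10ra to Stat3 varied least, at 2.99, 3.03, 2.85 and 3.42, with an SD of 0.11 on the log2 scale. For comparison, the log2 ratio of Il10ra to Il10rb had an SD of 0.45, and that of Il10 to Il10rb an SD of 0.97.

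The spread of the 4 genes was set beside that of all genes. Of the 12626 genes whose mean count was 10 or more, 35.1% had scaled counts at least 2-fold apart between libraries, and of the 4 genes only Il10 did, at 5.61-fold. A range as wide as that of Il10 was found in 5.80% of genes. The scaled counts of Il10ra, Il10rb and Stat3 had ranges of 1.97, 1.39 and 1.90, beside a median of 1.68 over all genes. Replicates 2 and 4 both stood above replicates 1 and 3 in 3 of the 4 genes (Il10, Il10ra and Stat3), and in 26.6% of all genes. Replicate 1 was lowest in all 4 genes, and in 32.6% of all genes. At least 1 pair of libraries had credibility intervals apart for each of the 4 genes, as for 75.6% of genes at a mean of 1 TPM or more. Because the genes were chosen with these values known, nothing is read from the counts. The summed macrophage markers were likewise higher in replicates 2 and 4 than in replicates 1 and 3, but the sum is mostly Lyz2, and only 4 of the 9 markers had that order in scaled counts. Cd68 was highest in replicate 3, and Mrc1 was at 499, 270.5, 342 and 211 TPM and Itgam at 152, 78.1, 72.5 and 73.7 TPM, both highest in replicate 1. The part of these markers in the order of the libraries was not tested.

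On the log2 scale of counts scaled to library size (CPM) with 1 added, Il10 deviated from its own mean by -1.58, 0.60, 0.09 and 0.89 in replicates 1 to 4. Il10ra deviated by -0.55, 0.40, -0.27 and 0.42, and Stat3 by -0.51, 0.40, -0.15 and 0.26. Il10ra and Stat3 were thus below their means in the same 2 libraries, whereas Il10 was close to its mean in replicate 3. Il10rb deviated by -0.26, -0.04, 0.21 and 0.10, with its highest value in replicate 3.

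Genes with a pattern like that of Il10 were few. Likeness was measured as the root mean square difference between 2 genes' deviations over the 4 libraries, among 6710 genes at a mean of 10 TPM or more. The nearest to Il10 was Hpse, which encodes heparanase, at a difference of 0.118 and levels of 78.2, 329.7, 209 and 318 TPM. Rell1, Arl5c, Nipal3 and Tifab followed at 0.123, 0.126, 0.133 and 0.154. In all, 31 genes lay within 0.25 of Il10, against 842 for Il10ra, 1280 for Stat3 and 2769 for Il10rb. A gene that varies little has many others near it, so these numbers follow the spread of each gene.

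The nearest to Il10ra were Trim34a (0.013), Sema4d (0.016), which encodes a semaphorin, and Arhgef6 (0.018). Stat3 was 78th in likeness to Il10ra, at 0.101, and Il10ra was 153rd in likeness to Stat3. The nearest to Stat3 were Otulinl (0.015), Tbc1d9b (0.023) and Ms4a6b (0.028). Those nearest to Il10rb were Thrap3 (0.018), Khdc4 (0.025) and Gab3 (0.027). The other 3 genes were farther from Il10, with Il10ra 414th at 0.603, Stat3 545th at 0.640 and Il10rb 1863rd at 0.838. With 4 libraries of 1 group, likeness describes these libraries only.

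**Figure D2:**
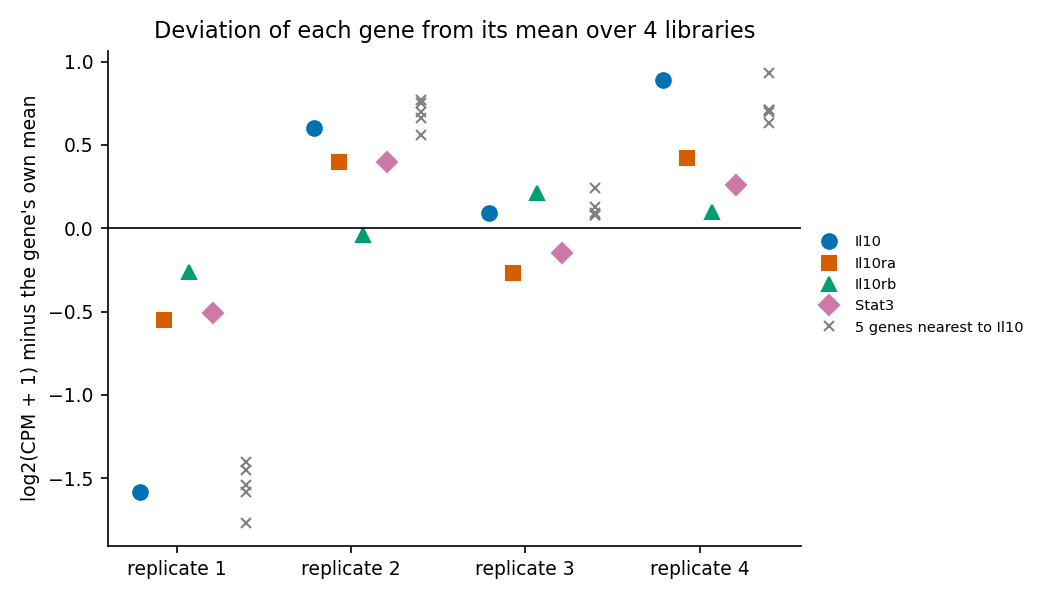
Deviation of each gene's log2(CPM + 1) from its own mean in replicates 1 to 4, with coloured symbols for Il10, Il10ra, Il10rb and Stat3 and grey crosses for the 5 genes nearest to Il10. Il10 and the crosses lie far below 0 in replicate 1, where Il10 is at -1.58, and Il10rb stays between -0.26 and 0.21.

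No other cytokine of the family was measured at an appreciable level. Of 5 further members, none reached 1 TPM in every library. Il20 had a mean of 0.138 TPM and Il19, which lies 79729 bases from Il10, a mean of 0.0850 TPM. Il22, its copy Iltifb and Il24 received no counts in any library. A count of 0 leaves room for up to 3 counts per library, or 0.111 CPM in the shallowest one. This limit covers counting error only.

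Il10rb led the class II cytokine receptors, the family of chains that bind interleukin-10 relatives and interferons and that also holds tissue factor (F3). It had the highest TPM of the 12 listed genes in 4 of 4 libraries, and its range did not overlap that of Ifngr1, an interferon gamma receptor chain at 172 ± 19.0 TPM (SD, n = 4). By mean Il10ra was the third, and Ifngr1, Il10ra and Ifnar2, an interferon alpha and beta receptor chain at 154 ± 18.9 TPM, did not differ beyond their spread. The place of Il10ra was 4th in replicates 1 and 3 and 2nd in replicates 2 and 4. Ifnar1 at 64.5 ± 5.41 TPM and Ifngr2 at 60.0 ± 10.2 TPM came next and also overlapped. F3 and Il20rb were at 3.18 and 1.71 TPM, Ifnlr1 and Il22ra2 at 0.0250 and 0.0125 TPM, and Il20ra and Il22ra1, the interleukin-22 receptor chain of epithelia, had no counts. The shared chain was measured together with the ligand-binding chain for interleukin-10, while those for interleukin-22 and lambda interferon were at or near 0.

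Variation between libraries was tested per gene against counting noise with a chi-square test and Benjamini-Hochberg adjustment, and the call of a variable gene needed both an adjusted p under 0.05 and a range of 2-fold or more. By this rule 33.0% of the 12626 genes were variable, Il10 among them. Il10ra, Il10rb and Stat3 also had an adjusted p under 0.05 and missed only the 2-fold floor, with ranges of 1.97, 1.39 and 1.90. The 4 genes were chosen with these values known, so nothing is read from their calls. None of the 6 other class II receptors tested was called. All lists of pathway genes were made with earlier results of these data known.

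Stat3 was close in level to Stat2 and below Stat6. Stat6, which carries interleukin-4 signals, was at 93.5 ± 6.01 TPM (SD, n = 4) and stood above Stat3 in every library. Stat3 at 50.6 and Stat2 at 50.2 ± 12.7 TPM overlapped, with Stat3 above Stat2 in 2 of 4 libraries. Stat5b and Stat5a lay at 15.4 and 13.4 TPM and Stat4 at 1.52 TPM. The 2 kinases of the interleukin-10 receptor were both present, Jak1 at 88.3 ± 15.1 TPM and Tyk2 at 22.9 ± 6.87 TPM. Jak2 was at 24.0 ± 2.90 TPM and Jak3 at 9.36 TPM. The ratio of Stat3 to Tyk2 was 2.12, 2.19, 2.46 and 2.12 in replicates 1 to 4. That of Stat3 to Jak1 varied more, at 0.437, 0.687, 0.611 and 0.549, as did that to Jak2, at 1.78, 2.58, 1.61 and 2.46. None of the 10 kinases and factors listed with Stat3 was called variable, beside 33.0% of all genes. All had ranges below the 2-fold floor, with Tyk2 at 1.82, so the lack of a call does not mean that they were level.

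**Figure D3:**
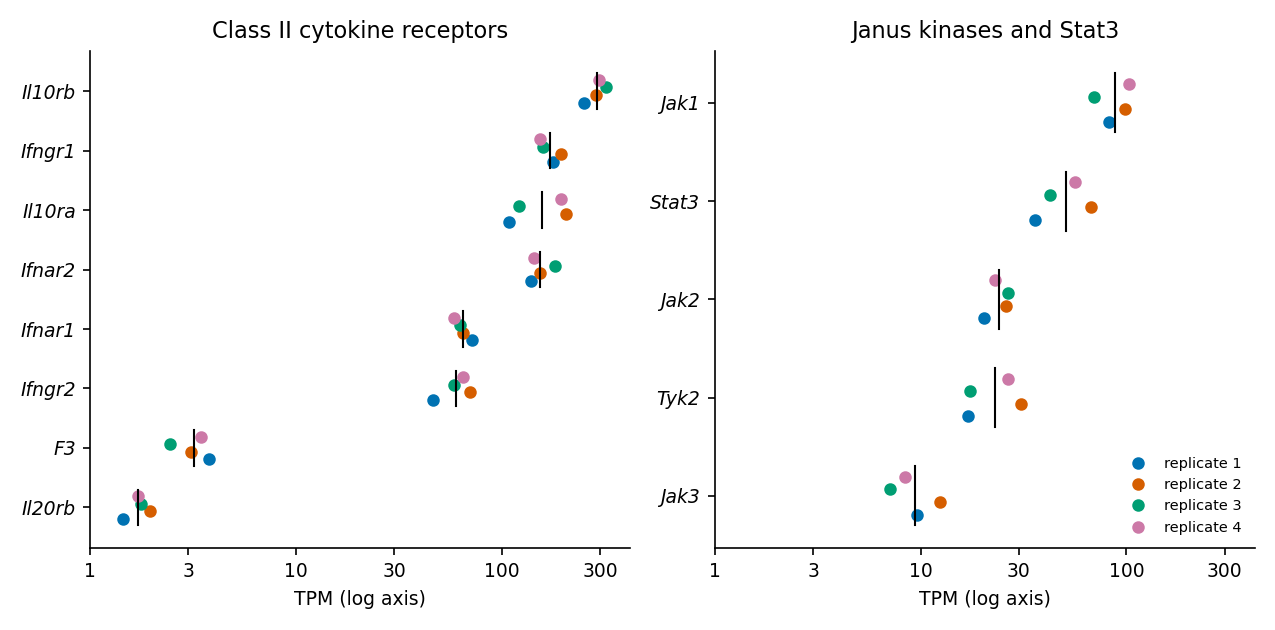
Level in TPM on a log axis of the class II cytokine receptors at a mean of 1 TPM or more (left) and of the Janus kinases with Stat3 (right), with 1 coloured point per library and a bar at the mean of 4. Il10rb is highest of the receptors at a mean of 289 TPM, Il10ra overlaps Ifngr1 and Ifnar2, and Stat3, at a mean of 50.6 TPM, lies between Jak1 and Jak2.

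Of the 10 genes that restrain JAK-STAT signalling, 4 were called variable (Ptpn1, Cish, Socs1 and Socs2), a number near the 33.0% of all genes. All 4 had their highest scaled count in replicate 2, but in TPM Ptpn1 was highest in replicate 4, at 63.9, 117, 87.5 and 145 TPM in replicates 1 to 4. Over all lists together, 9 of the 17 called genes were highest in replicate 2. The share of all genes highest there was not taken, so nothing is read from this. Socs3, the inhibitor that blocks signalling from the interleukin-6 receptor chain, was the most abundant of the 10 genes. It was at 517, 759.7, 404 and 580.2 TPM, with a mean of 565 ± 149 TPM (SD, n = 4), and was not called. The phosphatase genes Ptpn6 and Ptpn1 followed at 129 ± 13.1 and 103 ± 35.4 TPM. Socs3 was lowest in replicate 3, where Il10 was not lowest.

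Among 8 other receptor chains that signal through Stat3, 5 were tested and 4 were called (Csf3r, Il21r, Il6ra and Lifr), beside 33.0% of all genes. The list is short and was made with earlier results known, so nothing is read from this number. Csf3r, the receptor of granulocyte colony-stimulating factor, was at 12.6, 44.9, 50.4 and 39.4 TPM. Il6st, the shared chain gp130 of the interleukin-6 family, was at 34.7 ± 4.14 TPM (SD, n = 4) and was not called. Il21r was at 54.5, 35.6, 20.9 and 25.8 TPM, so replicate 1 was highest in this gene. Neutrophil precursors also express Csf3r, and the neutrophil markers were highest in replicate 3, as Csf3r was. Replicate 1 had the next highest sum of these markers, 198 TPM, but the lowest Csf3r. Their part in its level was not tested.

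Of 10 genes known to be induced by interleukin-10 in macrophages, all were at 1 TPM or more in every library. Of these 10, 5 were called variable (Zfp36, Hmox1, Il1rn, Nfil3 and Ddit4), beside 33.0% of all genes. Zfp36, Hmox1, Il1rn and Ddit4 were close to the 2-fold floor, with ranges of 2.07, 2.11, 2.02 and 2.06 in scaled counts. Many genes of the list also respond to inflammatory stimuli directly, so the list does not measure interleukin-10 signalling alone. Zfp36, which encodes an RNA-binding protein that promotes messenger decay, was at 972, 1975, 1147 and 1720.5 TPM. Hmox1, which encodes heme oxygenase, was at 582, 270.0, 466 and 302 TPM, with replicates 1 and 3 above replicates 2 and 4. The transcription factor gene Nfil3 had the widest range of the list, 5.45-fold in scaled counts, at 6.50, 28.8, 13.9 and 32.5 TPM. Its libraries stood in the order of those of Il10, replicate 1 lowest and replicate 4 highest. Of the 5 called genes of the list, 1 was highest in replicate 1, 2 in replicate 2, 1 in replicate 3 and 1 in replicate 4. The share of all genes with the order of Il10 was not taken, so nothing is read from that of Nfil3.

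All 21 factors and kinases known to act on Il10 transcription or its messenger were at 1 TPM or more in every library. Of these 21, 5 were called variable (Zfp36, Mapkapk2, Cebpb, Map3k8 and Rps6ka5), beside 33.0% of all genes. The 3 most abundant were Zfp36, the MAP kinase phosphatase gene Dusp1 at 939 ± 154 TPM (SD, n = 4) and Mapkapk2. Mapkapk2 encodes the kinase MK2, which acts downstream of p38 on messenger stability, and is also the nearest protein-coding neighbour of Il10, 28725 bases away. It was at 176, 396, 198 and 397 TPM, high in replicates 2 and 4. Map3k8, which encodes the kinase Tpl2, was at 22.9, 34.8, 22.9 and 40.5 TPM, with the same 2 libraries high. Cebpb was at 76.8, 121, 29.2 and 74.9 TPM and Maf at 127, 206, 114 and 127 TPM, both highest in replicate 2. Over all 7 lists, 17 of the 60 tested genes were called variable, a share near the 33.0% of all genes. Replicates 2 and 4 stood above replicates 1 and 3 in 30 of the 60, beside 26.6% of all genes. The lists were made with earlier results of these data known, so nothing is read from this number. Without replicate 1 the number called was 8 in the lists, and it was 2048 in place of 4167 over all genes.

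The 4 genes had unlike surroundings in the genome. Il10 lies between the nearly silent Il19 and the abundant Mapkapk2. Il10ra is flanked by BC049352, 3816 bases away at a mean of 0.830 TPM, and Tmprss13, at 0.00250 TPM. Il10rb lies 574 bases from Ifnar2 and 59403 bases from Ifnar1, so that 3 class II receptor genes with means of 289, 154 and 64.5 TPM are neighbours. The ratio of Il10rb to Ifnar2 was 1.82, 1.88, 1.77 and 2.07 in replicates 1 to 4. Stat3 lies 34373 bases from Stat5b, at 15.4 TPM, and its end overlaps that of Stat5a, at 13.4 TPM.

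Each gene was read mainly from 1 transcript. Il10 has a single annotated transcript, Il10-201, of 5 exons and 1310 bases with 178 codons. Il10rb-201, which encodes 351 codons, took 96.8% ± 1.04 (SD, n = 4) of the gene's TPM and Il10ra-201 took 93.1% ± 1.08. Stat3-203, the full-length alpha form, took 87.4% ± 1.98. Its share was lowest in replicate 2 in the first transcript table, at 84.5%, but in replicate 1 in the second, at 80.6%. The second transcript table gave 95.1% ± 1.84, 91.5% ± 1.87 and 83.2% ± 2.50 for these 3. Transcripts of a gene share most of their reads, so the shares are estimates and not counts.

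The Il10ra transcript that skips the exon shown above, Il10ra-203, took 5.01%, 7.25%, 5.72% and 6.96% of the gene in replicates 1 to 4. Its mean of 6.23% ± 1.05 (SD, n = 4) compares with 4.43% ± 0.555 in the second table. It was thus measured in every library by both tables, with replicates 2 and 4 above replicates 1 and 3 in each. Il10ra-202, which differs at the splice site by 6 bases, took 0.712% ± 0.395 in the first table and 4.05% ± 2.11 in the second. Its level therefore depends on the table, and its annotated length of 2799 bases, against 3498 for Il10ra-201, bears on the estimate as well as the splice site. Il10rb had 3 further transcripts above 0 in the first table, led by Il10rb-202, which carries no coding sequence, at 1.73% ± 0.675.

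The beta form, Stat3-202, took 3.10%, 5.14%, 3.57% and 2.92% of Stat3 in replicates 1 to 4, with a mean of 3.68% ± 1.01 (SD, n = 4). In the second table its mean was 1.49% ± 0.384, so both tables put it at a small share that differs between them by more than the spread. Stat3-202 also has 1712 exon bases that Stat3-203 lacks, mostly a longer 3′ end, so its share does not rest on the 50-base splice difference alone. Stat3-201, whose coding sequence is 3 bases shorter, took 6.54% ± 0.594 in the first table and 10.4% ± 2.15 in the second. Its annotated length is 2927 bases against 4516 for Stat3-203, so this share too rests on more than the splice difference. The 9 retained-intron transcripts of Stat3 together took 2.03% ± 0.654. Of the 14 annotated Stat3 transcripts, 3 reached 1 TPM in every library in the first table, Stat3-202 among them at 1.12 TPM in replicate 1. In the second table Stat3-202 was below 1 TPM in every library, at 0.292, 0.816, 0.732 and 0.641 TPM in replicates 1 to 4.

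**Figure D4:**
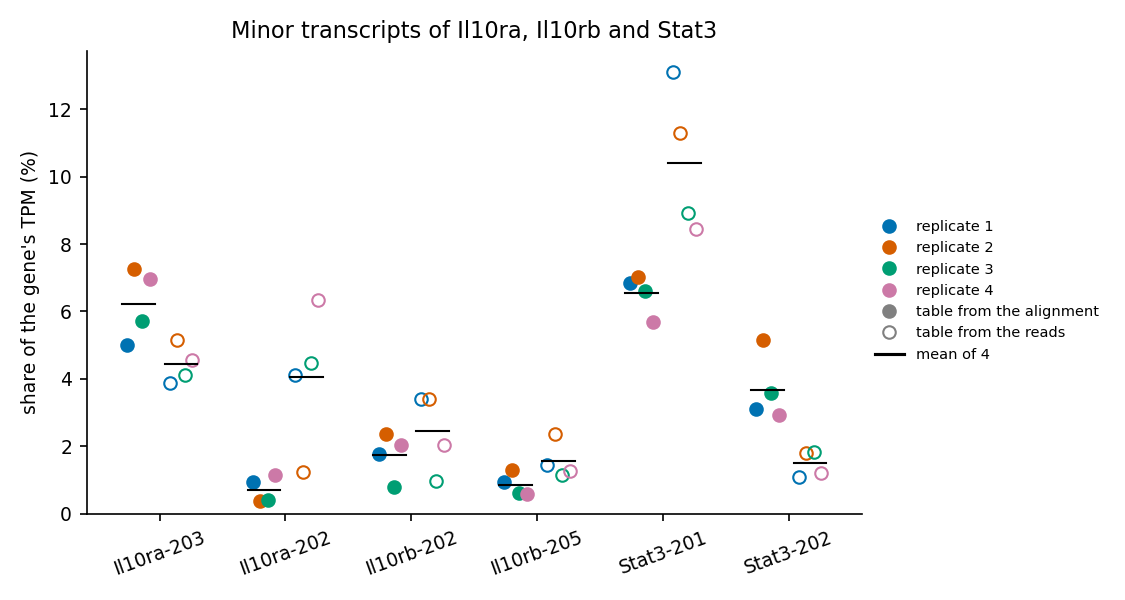
Share of the gene's TPM in percent of 6 minor transcripts of Il10ra, Il10rb and Stat3, with 1 colour per library, filled points for the transcript table from the alignment, open points for the table from the reads and bars for the mean of 4. Il10ra-203 has means of 6.23% and 4.43% in the 2 tables, while Stat3-202 has 3.68% and 1.49%.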

How the data were processed

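Polyadenylated RNA of 4 libraries was quantified by the authors on mm10 with GENCODE M21, as the deposited text lists state. Which aligner, counter and strand option were used is not given in the sources used here. Per the file headers, the deposited gene table holds expected counts, which need not be whole, and TPM with posterior means. The bounds of the deposited TPM credibility interval are a signal whose level is not stated, and they belong to the posterior mean, so the TPM can lie outside them. The deposited transcript tables hold isoform shares in percent, TPM and expected counts. The second transcript table, deposited with estimated counts and TPM, was summed to genes.

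Expected counts were rounded. Scaled counts used TMM sizes from edgeR 4.0.16 in R 4.3.3, and DESeq2 1.42.0 gave alternative size factors. Genes whose mean count was 10 or more were tested against counting noise (chi-square, 3 degrees of freedom, Benjamini-Hochberg), a test that covers counting error only. The rest used Python 3.11.15 with NumPy 2.4.6, pandas 2.3.3, SciPy 1.17.1, statsmodels 0.14.6 and matplotlib 3.10.9. There is 1 group, so no contrast of conditions was fitted. The members and lists were chosen with earlier results of these data known. All 4 members were named, with the 3 most abundant genes of each list, those at 1 TPM or at a count of 0, the genes of most like pattern and the nearest neighbours; Ifnlr1 and Il22ra2 were added after their values were seen, as were Il19, Il20 and Gm21970. 1 gene of the lists is not reported here. Alternatives were the second quantification, posterior means, a total without ribosomal and mitochondrial genes, other size factors, other minimum counts and fold floors, edgeR's tagwise variation and leaving out each library.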

Additional observations from a re-analysis of the deposited data

How the results depend on the processing

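Of 108 alternative values for 14 results, 96 were counted as the same and 12 as moved. Levels and shares were judged by the spread of the libraries, and numbers of genes by 1.5 times. Ranges between libraries have no such spread, and of these only that of Il10 without replicate 1 was counted as moved. Leaving out each library in turn gave a range of 1.73 to 5.20 between libraries for Il10, with 1.73 without replicate 1, 2048 to 3683 variable genes against 4167, and 8 to 16 variable pathway genes against 17. The lowest number in each case came without replicate 1. The second quantification gave a mean of 226 TPM for Il10rb against 289, and leading shares of 91.5% for Il10ra, 95.1% for Il10rb and 83.2% for Stat3. Posterior means gave a Stat3 share of 82.2%, and a total without ribosomal and mitochondrial genes gave 331 TPM for Il10rb. A fold floor of 1.5 gave 7347 variable genes and 33 variable pathway genes, and edgeR's tagwise variation gave 11 variable pathway genes. The cause of these moves was not tested, other than the lower floor and the fewer libraries by construction. No paired analysis was possible because there is 1 group. With 4 libraries and no unstimulated cells, the spread is known only roughly and no response can be measured.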

Other observations

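The 2 quantifications differed by an amount that followed the number of read files. Over 10678 genes at 1 TPM or more in both, the median ratio of the second to the first TPM was 0.721, 0.676, 0.878 and 0.854 in replicates 1 to 4. For Il10 it was 0.684, 0.630, 0.841 and 0.806, and for Stat3 0.741, 0.676, 0.935 and 0.929. Replicates 1 and 2, with 6 read files each, were the lower pair for both genes. In estimated counts the median ratio was 1.27, 1.29, 1.08 and 1.08, and for Il10 1.25, 1.25, 1.05 and 1.05.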
